A study of Mus musculus with 19 samples.

Results

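9 genes of naive CD4+ T cells were followed across 6 sorted populations measured on 19 Affymetrix arrays: Dapl1, Igfbp4, Tdrp, Ctla2a, Pdlim4, Myo6, Dapk1, Dntt and Gabrr2. They are 9 of 18193 genes named by a probe set, and all 9 are among the 9930 that passed the filter on low values; it asked for log2 4 on any 2 arrays, which the naive arrays alone could give. The 9 had been picked from these same arrays for large falls below naive cells, so that their falls are given as a description, with no test. Where several probe sets carry only that symbol, the one brightest on average over the 19 arrays stands for the gene.

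All mice were C57BL/6J and all cells CD4+ T cells. A protocol text given for every sample describes OT-II cells, which carry a transgenic receptor for an ovalbumin peptide, of Bcl6yfp/+ genotype (1 Bcl6 allele carries a YFP reporter), transferred into congenic mice that were immunized under the skin with NP-OVA in complete Freund's adjuvant. CXCR5hi PD-1hi cells from lymph nodes were divided into YFP-positive (n = 4; replicates 1 to 3 at day 7, replicate 4 at day 10) and YFP-negative cells (n = 4; replicates 2 and 3 at day 7, replicates 1 and 4 at day 10). CXCR5lo PD-1lo cells came from lymph nodes at day 7 (n = 3). Undivided CXCR5hi PD-1hi cells had Bcl6yfp/+ (n = 3, day 7) or Bcl6+/+ genotype (n = 3; replicates 1 and 2 at day 10, replicate 3 at day 7). Naive cells (n = 2) were taken from spleens of mice that had not been immunized. The protocol text may not describe the naive or Bcl6+/+ cells, and naive cells also differed from the others in organ. Nothing in the labels ties the arrays of a group to separate animals; the p-values therefore reflect spread between samples that may be technical only.

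Naive T cells recirculate between blood and lymphoid organs and carry a gene programme that is largely switched off on activation. CXCR5 draws T cells towards B cell follicles and PD-1 is an inhibitory receptor; high levels of both mark T follicular helper (Tfh) cells, whose defining factor is the repressor BCL6. CXCR5lo PD-1lo cells of an immunized mouse are a population outside that gate. Several of the 9 genes have known roles elsewhere: Igfbp4 binds insulin-like growth factors, Ctla2a is a cysteine protease inhibitor first found in activated T cells, Pdlim4 binds the actin cytoskeleton, and Myo6 is a myosin motor. Dapk1 is a pro-apoptotic kinase, Dntt (TdT) adds untemplated nucleotides at receptor gene joints in immature lymphocytes, and Gabrr2 is a subunit of an ion channel gated by GABA.

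The 9 members were divided into a kept and a lost group by their level in CXCR5lo PD-1lo cells. They were picked from these same arrays, so that the division is a description. Dapl1, Igfbp4, Tdrp and Ctla2a (4 of 9) lay nearer there to their naive level than to the mean of the 4 CXCR5hi PD-1hi groups, and are called kept. Pdlim4, Myo6, Dapk1, Dntt and Gabrr2 (5 of 9) lay nearer to the CXCR5hi PD-1hi level, and are called lost. The member closest to the dividing line on the kept side was Igfbp4, with a log2 difference of -2.17 from naive and 7.82 from CXCR5hi PD-1hi cells. On the lost side it was Pdlim4, with -6.44 from naive and 3.21 from CXCR5hi PD-1hi cells. The same 4 were kept after quantile normalization, with the mean of a gene's probe sets, and without any one of the 5 naive and CXCR5lo PD-1lo arrays. They were also the 4 kept where kept meant log2 6 or more on every CXCR5lo PD-1lo array. Under that rule Pdlim4 was lost through CXCR5lo PD-1lo replicate 1 only, at 3.71 beside 6.03 and 6.20.

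Genome positions and upstream sequence were taken from RefSeq on assembly GRCm38.p6. The kept genes lie on chromosome 2 (Dapl1, 59484653 to 59505020), chromosome 11 (Igfbp4, 99040005 to 99052655), chromosome 8 (Tdrp, 13952008 to 13975478) and chromosome 13 (Ctla2a, 60934155 to 60936625). The lost genes lie on chromosome 11 (Pdlim4, 54054928 to 54069032), chromosome 9 (Myo6, 80164976 to 80311729), chromosome 13 (Dapk1, 60601723 to 60763191), chromosome 19 (Dntt, 41029275 to 41059525) and chromosome 4 (Gabrr2, 33057712 to 33095865). Ctla2a and Dapk1 are the pair that lie nearest each other, one kept and the other lost.

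The 250 bases upstream of 3 members are printed to show the start of a gene kept near its naive level, of the gene that exceeded it, and of a gene lost everywhere outside naive cells. They are written 5′ to 3′ on the gene's strand, and capitals mark a match to one of 3 motifs searched on both strands: CACCC (Krueppel-like factors), TTCNNNGAA (STAT and BCL6 type) and GTAAACA (forkhead).
Dapl1 (kept; chr2:59484403-59484652, plus strand): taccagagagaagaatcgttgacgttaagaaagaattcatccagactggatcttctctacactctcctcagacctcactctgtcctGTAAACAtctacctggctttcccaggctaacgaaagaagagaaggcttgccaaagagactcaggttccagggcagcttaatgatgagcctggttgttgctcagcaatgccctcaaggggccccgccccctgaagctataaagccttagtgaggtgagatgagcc
Ctla2a (kept; chr13:60936626-60936875, minus strand): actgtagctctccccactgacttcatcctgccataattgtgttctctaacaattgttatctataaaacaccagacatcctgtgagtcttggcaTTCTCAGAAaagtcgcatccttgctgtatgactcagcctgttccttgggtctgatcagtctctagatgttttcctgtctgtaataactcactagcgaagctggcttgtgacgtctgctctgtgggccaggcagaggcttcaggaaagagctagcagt
Dntt (lost; chr19:41029025-41029274, plus strand): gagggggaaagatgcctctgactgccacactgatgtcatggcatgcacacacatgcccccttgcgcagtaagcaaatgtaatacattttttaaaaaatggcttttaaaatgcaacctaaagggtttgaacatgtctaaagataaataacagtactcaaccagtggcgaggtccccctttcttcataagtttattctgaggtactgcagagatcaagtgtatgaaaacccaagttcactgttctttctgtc
The Dapl1 window held 1 GTAAACA, the Ctla2a window 1 TTCNNNGAA, and the Dntt window none of the 3 motifs. Of the members not printed, Igfbp4 (kept) held 1 CACCC, Pdlim4 (lost) 2 and Dapk1 (lost) 1. Myo6 and Gabrr2 (both lost) held none of the 3, and no window was available for Tdrp. The windows of Igfbp4, Dapk1 and Gabrr2 lie inside the gene bounds given above, and those of Pdlim4 and Myo6 partly so. A second Ctla2a window, which overlaps with the printed one, also held 1 TTCNNNGAA. Of 32851 promoter windows of this length, 52.0% held CACCC, 7.02% TTCNNNGAA and 3.17% GTAAACA. The windows had a GC content of 50.0% (Dapl1), 46.8% (Ctla2a) and 41.6% (Dntt), against a median of 52.4% over all windows. A match describes letters only, and no binding was measured here.

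Values are log2 expression; a value near 2 is the floor of the scale, so that a fall onto it is limited by the floor. In bulk samples fewer cells that express a gene and less RNA per cell cannot be told apart.

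**Figure D1:**
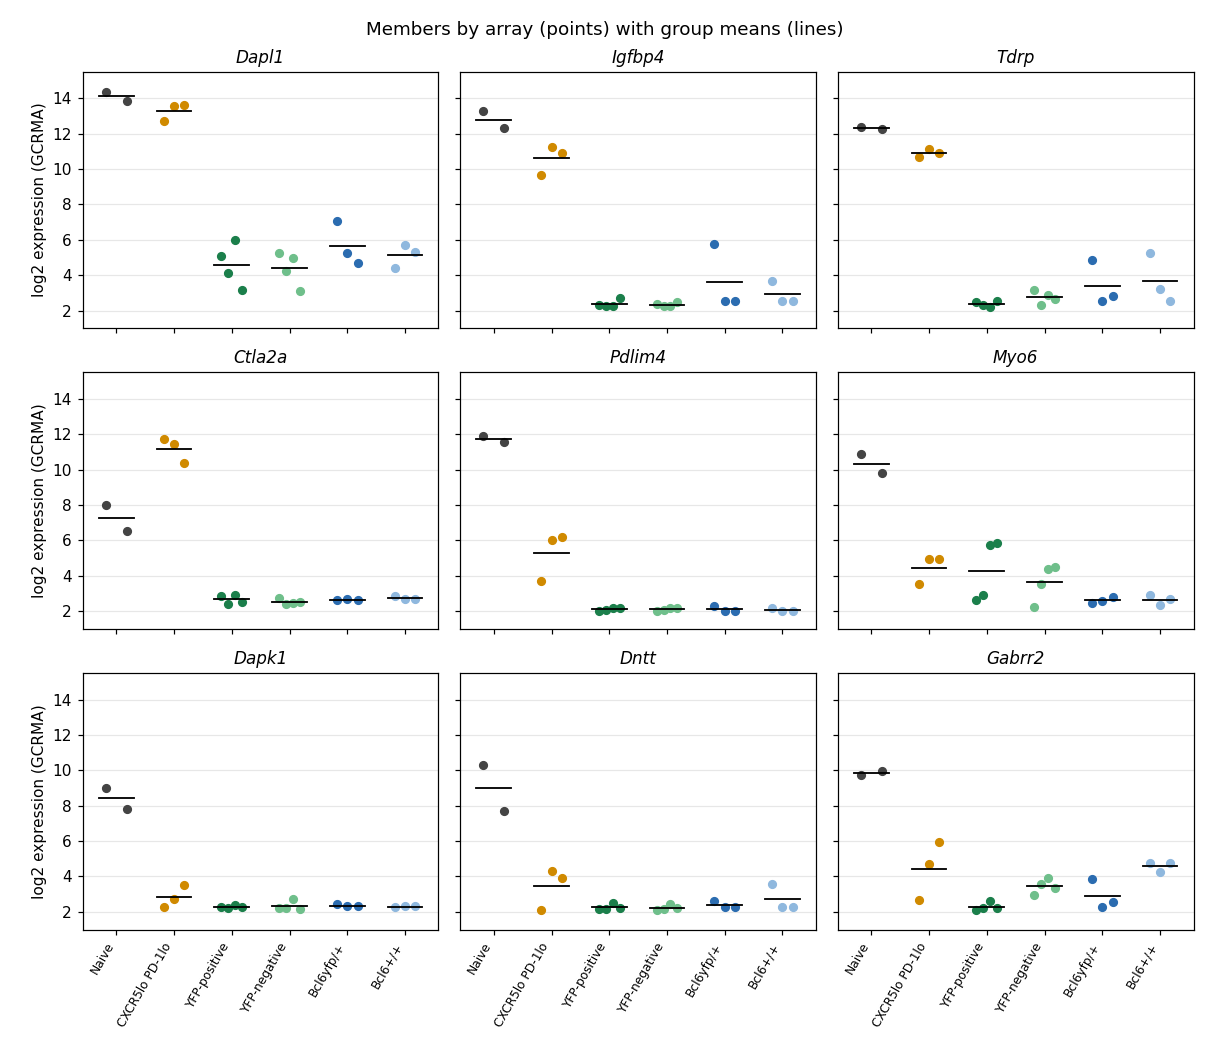
Each panel shows a member's log2 expression (vertical axis) on every array of the 6 groups (points) with the group mean (line). Dapl1, Igfbp4, Tdrp and Ctla2a stay high in CXCR5lo PD-1lo cells, while the other 5 lie nearer to CXCR5hi PD-1hi than to naive cells there.

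Dapl1, named for its likeness to a death-associated protein, was 14.37 and 13.88 on the naive arrays and 12.73, 13.56 and 13.60 on the CXCR5lo PD-1lo arrays. On the 14 CXCR5hi PD-1hi arrays it ran from 3.13 to 7.05 with a median of 5.04. The CXCR5lo PD-1lo mean differed by -0.83 from the naive mean and by 8.35 from the mean of the CXCR5hi PD-1hi groups, and no array of either fell within the other's range. Dapl1 did not go to the floor in CXCR5hi PD-1hi cells: 2 of the 14 arrays were below log2 4 and 0 below log2 3.

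Igfbp4 was 13.26 and 12.33 on the naive arrays and 9.69, 11.27 and 10.93 on the CXCR5lo PD-1lo arrays. On 12 of the 14 CXCR5hi PD-1hi arrays it was below log2 3, with a median of 2.50. The 2 exceptions were Bcl6yfp/+ replicate 1 at 5.77 and Bcl6+/+ replicate 1 at 3.65. The probe set used is of the x_at kind, whose probes may match other transcripts, and the other 5 Igfbp4 probe sets gave Bcl6yfp/+ replicate 1 values of 2.20 to 3.77. All 6 probe sets were lower in every CXCR5hi PD-1hi group, and in CXCR5lo PD-1lo cells, than in naive cells. In YFP-positive minus naive cells Igfbp4 had the largest fall of the 9930 genes tested, a log2 difference of -10.42.

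Tdrp, a gene first described in testis, was 12.36 and 12.28 on the naive arrays and 10.67, 11.13 and 10.93 on the CXCR5lo PD-1lo arrays. The CXCR5hi PD-1hi arrays ran from 2.20 to 5.25 with a median of 2.60. Replicate 1 of both genotypes stood highest among them, at 4.85 (Bcl6yfp/+) and 5.25 (Bcl6+/+), as it did for Igfbp4.

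Ctla2a was the one member that exceeded its naive level in CXCR5lo PD-1lo cells. It was 8.02 and 6.55 on the naive arrays, 11.75, 11.46 and 10.39 on the CXCR5lo PD-1lo arrays, and between 2.41 and 2.92 on all 14 CXCR5hi PD-1hi arrays. The 3 ranges did not overlap, and the CXCR5lo PD-1lo mean lay 3.92 above the naive mean. Ctla2a has a near-identical paralog, Ctla2b, so that the source of the signal is uncertain. A probe set annotated with both symbols ran from 6.23 to 6.79 in naive and from 10.01 to 11.09 in CXCR5lo PD-1lo cells. A probe set annotated with Ctla2b alone was 2.38 to 3.42 in naive and 7.11 to 8.83 in CXCR5lo PD-1lo cells, and at most 4.31 in any CXCR5hi PD-1hi group.

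Of the lost genes, Pdlim4 was 11.93 and 11.59 on the naive arrays and 3.71, 6.03 and 6.20 on the CXCR5lo PD-1lo arrays. All 14 CXCR5hi PD-1hi arrays lay between 2.0 and 2.29, at the floor. Pdlim4 was the only lost gene whose CXCR5lo PD-1lo arrays all lay above every CXCR5hi PD-1hi array.

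Myo6 was 10.89 and 9.81 on the naive arrays and 3.54, 4.94 and 4.93 on the CXCR5lo PD-1lo arrays. It was the most variable lost gene within CXCR5hi PD-1hi cells: YFP-positive replicates 3 and 4 reached 5.74 and 5.85, above all 3 CXCR5lo PD-1lo arrays, while replicates 1 and 2 were 2.66 and 2.94. A second Myo6 probe set that passed the filter gave those same arrays 2.34 and 3.01, so that the 2 higher values rest on the one probe set.

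Dapk1 was 9.01 and 7.82 on the naive arrays, 2.25, 2.75 and 3.53 on the CXCR5lo PD-1lo arrays and 2.14 to 2.70 on the CXCR5hi PD-1hi arrays. It came closest of the 9 to the same level in all activated groups, with a CXCR5lo PD-1lo mean 0.53 above the CXCR5hi PD-1hi mean.

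Dntt was 10.32 and 7.68 on the naive arrays, 2.13, 4.30 and 3.91 on the CXCR5lo PD-1lo arrays and 2.12 to 3.60 on the CXCR5hi PD-1hi arrays. Its naive arrays lay 2.64 apart, the widest gap of the members, and naive replicate 1 was the higher in all 3 Dntt probe sets (10.02 against 6.31 and 8.77 against 5.67 in the other 2). Rag1 and Ptcra, which with Dntt are active in thymocytes, were at the floor on every array (at most 2.24), and 5 of the 6 thymocyte markers were below log2 4 on both naive arrays. Their summed level ran from 6.52 to 7.76 in naive and from 6.77 to 7.33 in CXCR5lo PD-1lo cells.

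Gabrr2 was 9.74 and 9.96 on the naive arrays and 2.67, 4.70 and 5.93 on the CXCR5lo PD-1lo arrays. The 14 CXCR5hi PD-1hi arrays ran from 2.08 to 4.75 with a median of 3.17, and overlapped with the CXCR5lo PD-1lo arrays. CXCR5lo PD-1lo replicate 1 was the lowest of its group for all 5 lost genes; for the kept genes it was the lowest for Dapl1, Igfbp4 and Tdrp and the highest for Ctla2a.

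**Figure D2:**
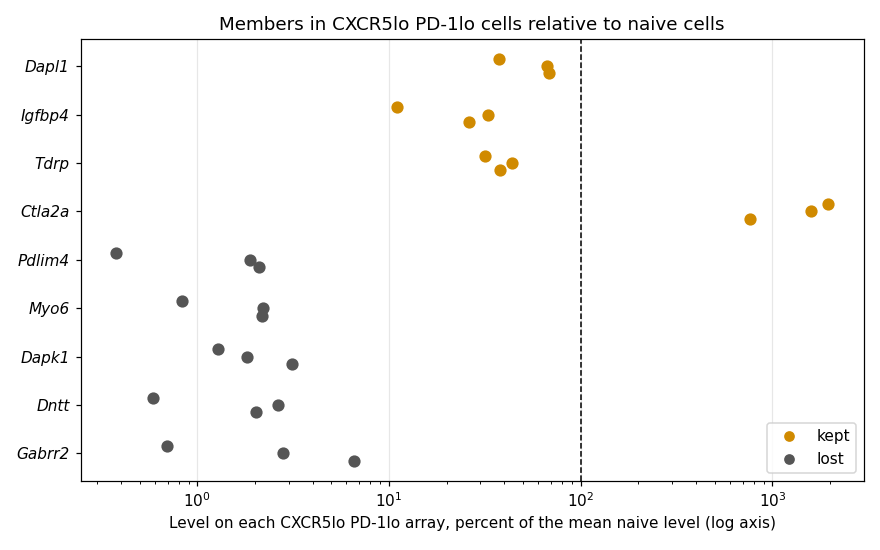
The level on each CXCR5lo PD-1lo array (points, 3 per gene, replicates 1 to 3 from top to bottom) is given as a percent of the mean naive level, on a logarithmic axis, with a dashed line at 100%. The kept genes lie at 11% or more and the lost genes at 6.59% or less.

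On a linear scale the lost genes retained 0.377% to 6.59% of their mean naive level on the CXCR5lo PD-1lo arrays. Dapl1 retained 37.3%, 66.6% and 68.5%, Igfbp4 11%, 32.9% and 26.0%, and Tdrp 31.8%, 43.9% and 38.1%. Ctla2a stood at 1950%, 1590% and 761%. The plot of percent retained shows a gap between the lowest kept array (Igfbp4, replicate 1) and the highest lost array (Gabrr2, replicate 3). Among the 9930 genes, the 5 lost members were the 5 with the largest falls in CXCR5lo PD-1lo minus naive cells, in the order Pdlim4, Myo6, Dapk1, Dntt and Gabrr2. These ranks and the gap describe the choice of the members. Of 41 genes with high naive and low CXCR5hi PD-1hi levels, counted below, 18 had CXCR5lo PD-1lo arrays on both sides of log2 6. In 13 all lay at log2 6 or more, and in 10 all lay below it.

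All 9 members lay lower on every array of each of the 4 CXCR5hi PD-1hi groups than on both naive arrays. The background for such a fall with no overlap was 11.8% of tested genes in YFP-positive, 9.64% in YFP-negative, 11.8% in Bcl6yfp/+ and 7.9% in Bcl6+/+ cells. In CXCR5lo PD-1lo cells 8 of 9 lay below both naive arrays (background 6.16%) and Ctla2a above them (background 48%). Against CXCR5lo PD-1lo cells, 6 of 9 lay lower without overlap in YFP-positive cells (background 14.1%), 5 in YFP-negative (11.2%), 6 in Bcl6yfp/+ (14.9%) and 6 in Bcl6+/+ cells (9.65%). The members were chosen on contrasts with naive cells, and these comparisons share arrays, so that nothing is read from the counts.

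The deposited arrays did not share one distribution. Grouping arrays by their sorted values, with a mean difference under 0.06 log2 inside a set, gave 7 normalization sets, and CXCR5lo PD-1lo arrays never shared a set with a naive array, so that no set compares that pair directly. With the set in the model as a block, where the link runs through the other groups, Dapl1 differed by -2.89 between CXCR5lo PD-1lo and naive cells in place of -0.83. In the one set with a naive and a YFP-positive array, YFP-positive replicate 4 differed from naive replicate 1 by between -11.23 (Dapl1) and -5.04 (Myo6), with all 9 members lower. In the one set with a naive and a Bcl6yfp/+ array, Bcl6yfp/+ replicate 1 differed from naive replicate 2 by between -9.29 (Pdlim4) and -3.93 (Ctla2a), with -6.83 for Dapl1, -6.57 for Igfbp4 and -7.42 for Tdrp.

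The comparisons that the choice of members did not use were those within CXCR5hi PD-1hi cells. They were fitted with limma over all 9930 genes, with no term for pairing, and adjusted by Benjamini-Hochberg. None of the 9 members was called at an adjusted p under 0.05 between YFP-positive and YFP-negative cells, where 12 of 9930 genes (0.121%) were. None was called between Bcl6yfp/+ and Bcl6+/+ cells, where 0 genes (0%) were, or between day 10 and day 7, where 25 genes (0.252%) were. Without YFP-positive replicate 4 the reporter comparison called 307 genes, and with each array left out in turn the day comparison called 0 to 356, none of them a member. These counts say little for Ctla2a, Pdlim4, Dapk1 and Dntt (4 of 9), which were below log2 4 on all 14 CXCR5hi PD-1hi arrays. They passed the filter through naive or CXCR5lo PD-1lo arrays, and a difference between CXCR5hi PD-1hi groups could hardly be measured. Igfbp4, below log2 4 on 13 of the 14, also needed naive or CXCR5lo PD-1lo arrays to pass. In the reporter comparison Igfbp4 (at most 2.69), Tdrp (at most 3.17) and Gabrr2 (at most 3.94) were below log2 4 on every array too. At an unadjusted p under 0.05 limma gave 1 member (Gabrr2) in the reporter comparison (background 7.92%), 1 (Gabrr2) in the genotype comparison (2.89%) and 0 in the day comparison (10%).

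Gabrr2 was lower in YFP-positive cells (2.08, 2.20, 2.59 and 2.20) than in YFP-negative cells (2.96, 3.60, 3.94 and 3.37). The groups did not overlap, as for 2.31% of tested genes in that direction. The log2 difference was -1.20 (SE 0.50), with an adjusted p of 0.49 in limma, so that it was not called. Because the groups did not overlap, every pair of arrays from the same set had to be lower in YFP-positive cells too. The 4 pairs differed by -0.88 (day 7 beside day 10), -1.39, -1.35 and -1.17. These values give sizes and add nothing on the direction. The adjusted p was 0.117 with the replicate number as a block and 0.0576 with the normalization set as one; these blocks raised the number of genes called from 12 to 268 and 1541. Over the 15 alternatives the difference ran from -1.37 to -0.98 and the adjusted p from 0.0576 to 0.953. All YFP-positive values lay near the floor.

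Some markers of other cells stood high on YFP-negative replicate 1. Lyz2, of the myeloid list, was at 10.98 and Jchain, of the plasma cell list, at 12.42, against at most 6.76 and 10.53 elsewhere. The other 6 of 7 myeloid markers were below log2 4 on all YFP-negative arrays (Itgam at most 2.18, Csf1r at most 2.17). The highest of these was Fcer1g, at most 3.84 there and at most 2.79 in YFP-positive cells. Of the other plasma cell markers, Prdm1 was at most 2.75 in YFP-negative cells. Sdc1 ran from 2.26 to 6.54 there and from 2.25 to 2.66 in YFP-positive cells. Xbp1 ran from 10.71 to 11.3 and from 10.41 to 11.33. Without YFP-negative replicate 1 the Gabrr2 difference was -1.37.

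Gabrr2 was also lower in Bcl6yfp/+ cells (3.84, 2.30 and 2.56) than in Bcl6+/+ cells (4.74, 4.27 and 4.75), again without overlap (background 4.43% lower). All Bcl6yfp/+ arrays were from day 7, as was 1 of the 3 Bcl6+/+ arrays; with day as a covariate the difference was -1.91. The log2 difference was -1.69 (SE 0.58), with an adjusted p of 0.868 in limma, beside a median over all tested genes of -0.26. It ran from -2.16 to -1.39 over 13 alternatives, with adjusted p from 0.537 to 1.0, and was -2.08 in the set that holds replicates 2 and 3 of both genotypes. Ctla2a did not overlap either, at 2.62 to 2.68 against 2.68 to 2.84, but differed by -0.09 only.

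The other 8 members differed between YFP-positive and YFP-negative cells by at most 0.63 in size (Myo6, SE 0.68, adjusted p = 1.0 in limma). The Myo6 difference ran from 0.12 without YFP-positive replicate 4 to 1.18 without YFP-positive replicate 1; it was 0.15 without YFP-positive replicate 3 and without YFP-negative replicate 1, and 1.09 without YFP-positive replicate 2. Between the genotypes they differed by at most 0.70 (Igfbp4, SE 0.65, adjusted p = 0.868 in limma). That Igfbp4 difference turned to -0.38, and that of Dapl1 from 0.54 to -0.16, without Bcl6yfp/+ replicate 1. Between day 10 and day 7 the members furthest from 0 were Dapl1 at -0.83 (SE 0.55, adjusted p = 0.711 in limma) and Tdrp at 0.66 (SE 0.46, adjusted p = 0.72), which was 0.27 without Bcl6+/+ replicate 3 and 0.36 without Bcl6+/+ replicate 1. The day difference was not shown to vary between the 3 groups that hold both days, with an adjusted interaction p of 0.999 for every member. 

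**Figure D3:**
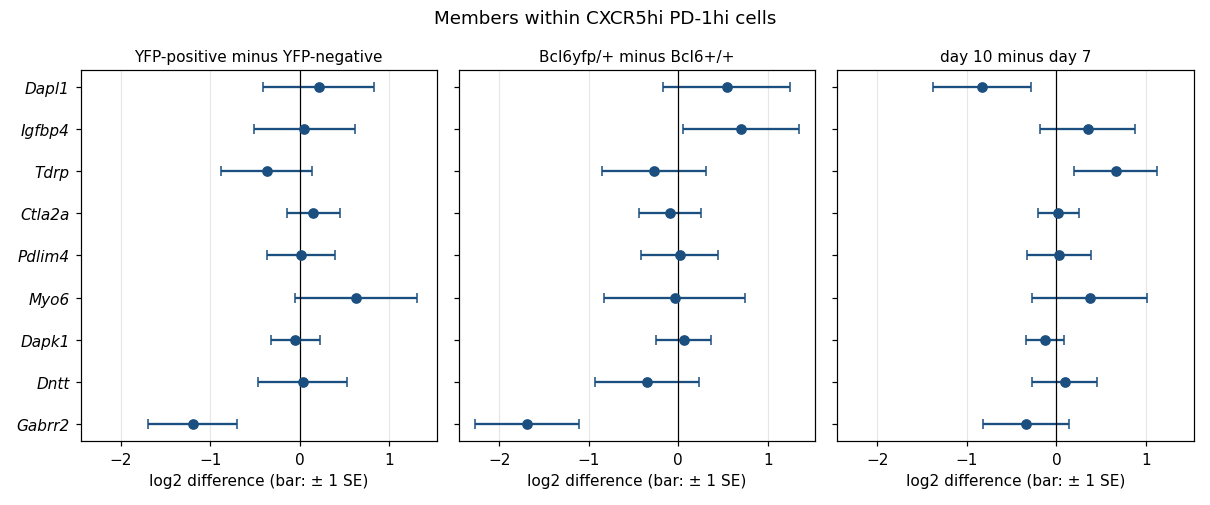
Each panel gives the log2 difference (horizontal axis, point) with 1 SE (bar) of the 9 members in a comparison within CXCR5hi PD-1hi cells. Gabrr2 lies at -1.20 and -1.69 in the reporter and genotype panels, and no member was called.

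To set the 9 members beside better known naive genes, 20 genes of naive T cells and recirculation were counted, of which 18 were tested; the other 2 were not analysed here. In YFP-positive minus naive cells 9 of 18 fell and 0 rose, where 6.46% of all genes fell and 22.4% rose; the list's median was -0.99 against 0.39 for all genes. The 4 with the largest falls were Il7r (-7.03, SE 0.82, adjusted p = 6.79e-06 in limma), the receptor chain for the survival cytokine IL-7, Klf2 (-6.90, SE 0.56, adjusted p = 9.87e-08), a factor that drives S1pr1, Ccr7 (-6.02, SE 1.18, adjusted p = 0.00114), the lymph node homing receptor, and S1pr1 (-5.68, SE 0.61, adjusted p = 2.57e-06), the receptor for exit from lymphoid organs. In YFP-negative minus naive cells 6 fell (background 4.64%), in Bcl6yfp/+ cells 7 (5.06%), and in Bcl6+/+ cells 7 (4.45%), where 1 rose (31.5%), Slfn2 (0.83, SE 0.31, adjusted p = 0.0449 in limma), a gene of T cell quiescence; the median of all genes was 0.64 there, and after quantile normalization the Slfn2 difference was 0.16. Within CXCR5hi PD-1hi cells 2 of the 18 fell in YFP-positive minus YFP-negative cells, Klf2 (-3.67, SE 0.46, adjusted p = 0.00191 in limma) and S1pr1 (-3.33, SE 0.50, adjusted p = 0.0121), and 0 rose, where 0.0806% of all genes fell and 0.0403% rose.

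In CXCR5lo PD-1lo minus naive cells 1 of 18 fell, Bcl2 (-2.17, SE 0.33, adjusted p = 0.000251 in limma), an inhibitor of apoptosis, and 0 rose, where 1.58% of all genes fell and 10.4% rose. The 4 recirculation genes named above differed from naive cells there by -0.39 (Il7r), -0.33 (Ccr7), -0.24 (Klf2) and -0.12 (S1pr1), and none of these passed the test. YFP-positive cells were lower than CXCR5lo PD-1lo cells for 8 of 18 genes and higher for 0, where 5.39% of all genes were lower and 5.18% higher; Klf2 differed by -6.66 and Il7r by -6.64. The count that fell in CXCR5lo PD-1lo minus naive cells was 4 after quantile normalization, which moved the median of all genes from 0.46 to -0.08, 8 with a block for the set, and 0 with the mean of the probe sets, where Bcl2 was no longer called.

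**Figure D4:**
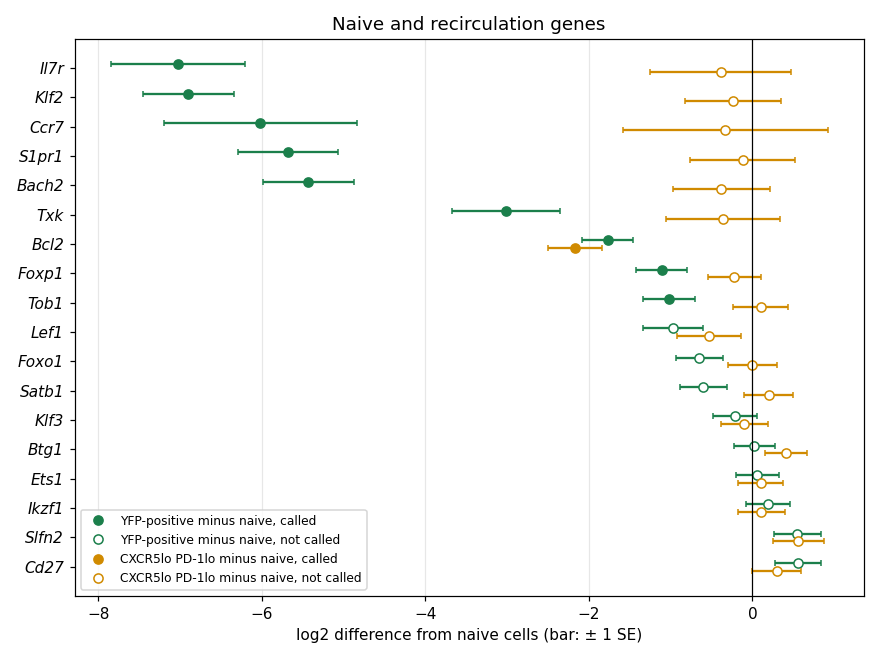
The log2 difference from naive cells with 1 SE is given for 18 naive and recirculation genes in YFP-positive (green) and CXCR5lo PD-1lo cells (orange); filled points were called. Il7r, Klf2, Ccr7 and S1pr1 lie between -7.03 and -5.68 in YFP-positive cells and between -0.39 and -0.12 in CXCR5lo PD-1lo cells.

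The members also differed in how they varied together over the 19 arrays. Pearson's r was 0.969 to 0.990 among Dapl1, Igfbp4 and Tdrp, and 0.876 to 0.909 between them and Ctla2a. Among the 5 lost genes it was 0.792 to 0.971. Dapl1, Igfbp4 and Tdrp correlated with the lost genes at 0.619 to 0.894, highest for Pdlim4 (0.846 to 0.894), so that the ranges overlap. Between Ctla2a and the lost genes r was 0.387 to 0.623. These values describe arrays that share groups and normalization sets. The members were also picked on these arrays for a shared fall below naive cells. Leaving the 9 members out and taking genes whose group means spanned log2 3 or more, the closest to Dapl1 were Klrd1 (CD94, a lectin-like receptor; r = 0.984) and Itgb3 (the integrin beta 3 chain; 0.967). Itgb3 was also among the closest to Igfbp4 (0.988) and Tdrp (0.994), beside Ctsw (0.985), a protease, and St8sia6 (0.985), a sialyltransferase. Ctla2a lay closest to Qpct (0.985) and Acsbg1 (0.982), which likewise were higher in CXCR5lo PD-1lo than in naive cells, at 7.65 against 5.76 and 7.69 against 6.24.

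Among the lost genes, Pdlim4 lay closest to Cyp2d22 (0.989) and Lrrc75b (0.989), Myo6 to Nacc2 (0.916) and As3mt (0.909), and Gabrr2 to Lrrc23 (0.939) and Tafa3 (0.932). Outside the members, Dapk1 and Dntt had the same closest pair, Dennd2c (0.997 and 0.966) and Gpr34 (0.992 and 0.978).

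Over all genes, 41 of 9930 had both naive arrays at log2 7 or more and all 14 CXCR5hi PD-1hi arrays below log2 6, levels chosen after the values were seen. In 13 of the 41 every CXCR5lo PD-1lo array was at log2 6 or more, in 10 every one was below it, and in 18 the arrays lay on both sides. The 41 included 7 of the 9 members; Dapl1 was outside because it exceeded log2 6 on 1 CXCR5hi PD-1hi array and Ctla2a because one naive array was at 6.55.

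Marker genes were read beside these results. Cd4 was 13.29 or higher on every array. Of the 6 Tfh markers, Cxcr5 and Pdcd1 (PD-1) were used in the sort. All 6 rose against naive cells in each CXCR5hi PD-1hi group and in CXCR5lo PD-1lo cells. Of all genes, 22.4% rose in YFP-positive, 31.5% in Bcl6+/+ and 10.4% in CXCR5lo PD-1lo cells. In each CXCR5hi PD-1hi group 4 of the 6 were also called higher than in CXCR5lo PD-1lo cells. For YFP-positive cells 5.18% of all genes were higher in that comparison. The 5 measured naive CD4 T markers had a summed level of 15.31 to 15.88 in naive, 15.30 to 15.56 in CXCR5lo PD-1lo and 14.06 to 14.26 in YFP-positive cells. Of the 5 measured CD8 T and NK markers, 2 reached log2 8 in CXCR5lo PD-1lo cells (Klrd1 at a mean of 10.72 and Nkg7 at 10.94) and 1 in naive cells (Klrd1 at 10.63, with Nkg7 at 2.19). Their summed level was 11.61 to 12.34 in CXCR5lo PD-1lo, 9.94 to 11.55 in naive and 5.94 to 7.54 in CXCR5hi PD-1hi cells. Cd8a stayed at or below 2.41 everywhere and Ncr1 at or below 2.24. The group means of Cd8b1 ran from 5.83 (Bcl6+/+) to 6.83 (naive). No B cell marker reached log2 8; the summed level was 5.94 to 6.05 in CXCR5lo PD-1lo cells, where Cd79b was at 5.31, and 4.79 to 5.06 elsewhere. Of the 4 plasma cell markers, Jchain was 7.72 to 10.53 in CXCR5lo PD-1lo and 2.21 to 5.56 in naive cells and Xbp1 10.14 to 11.15 and 8.74 to 9.08. Sdc1 was at a mean of 2.35 in CXCR5lo PD-1lo and 2.71 in naive cells, and Prdm1 at 5.95 and 6.03. Their summed level was 10.42 to 11.98 in CXCR5lo PD-1lo and 8.97 to 9.58 in naive cells. Whether cells of these other types were present, and whether they had a part in the members' levels, was not tested.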

How the data were processed

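Deposited log2 expression values of 45101 probe sets were used. They were made by the authors with GCRMA, per the submitters' processing notes, which corrects background and summarises the probes of a set; its version is not given in the sources used here. Probe sets were named through GEO's platform annotation, matched to RefSeq genes of GRCm38.p6 by Entrez identifier; 34945 carried 1 symbol, 932 several and 9160 none. Those reaching log2 4 on at least 2 arrays were kept, and each gene took the probe set with the highest mean (9930 genes). One linear model over all 19 arrays was fitted with limma 3.58.1 in R 4.3.3, with Benjamini-Hochberg adjustment over all genes and calls at an adjusted p under 0.05, and was tested on simulated data. The median of an array lay between 2.40 and 2.99, with 40.9% to 46.6% of its probe sets at log2 4 or more; the number of arrays limits the precision.

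Named were all 9 members, the 4 listed naive genes with the largest called falls and any called the other way, the 2 genes outside the members most correlated with each member, and markers at log2 8 or more. Members and lists were chosen with earlier results of these data known. Same-numbered arrays deviated together from their group means (correlations of 0.27 to 0.87 over genes). Replicate numbers of the immunized groups were therefore taken as pairing the arrays, but only in the alternatives with the replicate number as a block. The main fits were not paired. This pairing rests on the data and the numbers alone: Bcl6yfp/+ 2 and Bcl6+/+ 3 correlated at 0.56 and 3 and 2 at 0.43, and the reporter arrays numbered 1 are from day 7 and day 10. Alternatives were no filter, quantile normalization, the mean of a gene's probe sets, the normalization set or the replicate number as a block, day as a covariate, only the groups compared, and leaving out each array.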

Additional observations from a re-analysis of the deposited data

Results flagged for a closer look

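Dntt stood at 2.52 in YFP-positive replicate 3, apart from the other 3 arrays of the group at 2.16 to 2.20. YFP-negative replicate 3, of the same normalization set, was also the highest of its group at 2.45, and the 3 arrays of that set had the highest medians of the 19, at 2.89 to 2.99. The gap made up a share of 0.893 of the group's range, and chance sets apart about 1 in 20 groups in this way. All 4 values lie near the floor of the scale.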

How the results depend on the processing

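No member was called in the reporter, genotype or day comparison under any alternative run (0 to 0 with each array left out), and the same 4 members were kept under quantile normalization, the mean of the probe sets, the log2 6 rule and with each naive or CXCR5lo PD-1lo array left out (4 to 4); the set block was not run for that division. The replicate block, run for the reporter and genotype comparisons, changed no member call. Set block here means the normalization set as a term. For the naive and recirculation genes in CXCR5lo PD-1lo minus naive cells, 1 was called, against 4 after quantile normalization, 0 with the mean of the probe sets and 8 with the set block (1 to 1 with each array left out). In YFP-positive minus CXCR5lo PD-1lo cells 8 were called, against 13 with the set block (12 lower, 1 higher), 12 with the replicate block, and 6 to 8 with each array left out. In YFP-positive minus naive cells 9 were called, and 7 to 10 with each array left out. The causes were not tested. The replicate block planned for that last comparison was not run, because only 1 number is shared with the naive arrays.

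Over all genes, YFP-positive minus YFP-negative calls went from 12 to 7 without the filter, 66 after quantile normalization, 1541 with the set block, 268 with the replicate block, 2 with only the groups compared, and 4 to 307 with each array left out (307 without YFP-positive replicate 4). Genotype calls went from 0 to 4 with the set block. Day calls went from 25 to 2 without the filter, 0 with the set block, and 0 to 356 with each array left out. Calls against naive cells went from 2863 to 4663 (YFP-positive) and from 1185 to 2319 (CXCR5lo PD-1lo) with the set block, and to 1588 to 3186 and 574 to 1151 with each array left out. YFP-positive minus CXCR5lo PD-1lo calls went from 1049 to 1944 after quantile normalization, 4439 with the set block, 3689 with the replicate block, and 654 to 1051 with each array left out. Quantile normalization moved the share of calls that were higher from 77.6% to 46.1% (YFP-positive minus naive) and from 86.8% to 46.1% (CXCR5lo PD-1lo minus naive). Of the members' tested differences, 46 of 387 changed sign without being called. The genotype difference of Dapl1 (0.54) became -0.53 with the set block, -0.02 with day as a covariate and ran from -0.16 to 1.04 with each array left out. That of Igfbp4 (0.70) became -0.01 with the set block and ran from -0.38 to 1.24 with each array left out. The day difference of Dapl1 (-0.83) became 0.66 with the set block. Falls onto the floor of the scale are lower bounds, and 2 naive arrays limit every comparison with them.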
